A study of Homo sapiens with 6 samples.

Results

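The genes described here encode translation initiation factors and the kinases that phosphorylate the alpha subunit of eIF2. They were chosen by name: every probe set annotated to a single symbol that begins with EIF and a digit of the initiation factor series, without the 4E-binding proteins EIF4EBP1 and EIF4EBP2, with the probe set of highest mean standing for a gene. The rule found 24 genes on 25 probe sets, among 14884 named genes on 16098 of the 53617 probe sets. They comprise the 4 EIF2AK kinases, 8 eIF4 factors, 10 other factors and 2 long non-coding RNAs, EIF1B-AS1 and EIF3J-DT, which carry a factor's name but encode no factor. No named probe set stood for a subunit of eIF2, eIF2B or eIF3, and these complexes are not analysed here, nor are the eIF4G scaffolds and EIF4A1. The genes were not chosen by a measured value, though the choice was made with earlier results of these data known.

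BE(2)-C cells come from a human neuroblastoma with an amplified MYCN gene. In the derivative BE(2)-C_tetoff_KDM4C a tet-off construct encodes KDM4C, a histone H3 lysine demethylase, which is expressed without doxycycline and silenced with it. Total RNA was measured on 6 whole-transcript arrays, 3 from cells grown without doxycycline (construct on) and 3 from cells grown with doxycycline (construct off), all after 6 days in medium with dialyzed serum, and the comparison asks which transcripts differ with the construct on. Both groups carry the construct, no cells without it were analysed here, the labels do not say whether the line is 1 clone, and so the effects of KDM4C and of doxycycline withdrawal cannot be told apart.

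Initiation begins when eIF2, loaded with GTP and initiator tRNA, joins the small ribosomal subunit together with eIF1, eIF1A, eIF3 and eIF5, while the eIF4 factors recruit the subunit to the capped end of the mRNA. At the start codon eIF5 triggers GTP hydrolysis on eIF2, and eIF5B then promotes joining of the large subunit. The EIF2AK kinases sense haem shortage, double-stranded RNA, stress of the endoplasmic reticulum or uncharged tRNA and phosphorylate eIF2alpha. Phosphorylated eIF2 blocks its exchange factor eIF2B, which lowers general translation but favours translation of the ATF4 mRNA.

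Promoter windows are shown for EIF2AK2 and EIF5A2, the 2 members with the smallest p. They are RefSeq sequences of GRCh38.p14, from 250 bases before to 50 bases after the gene start, printed in the direction of transcription. Capitals mark matches to GAAA, any 2 letters and GAAA, the core of the interferon response element, and to CACGTG, the E-box bound by MYC family proteins. The EIF2AK2 window lies at chr2:37156931-37157230 and that of EIF5A2 at chr3:170908588-170908887, both on the minus strand.
EIF2AK2: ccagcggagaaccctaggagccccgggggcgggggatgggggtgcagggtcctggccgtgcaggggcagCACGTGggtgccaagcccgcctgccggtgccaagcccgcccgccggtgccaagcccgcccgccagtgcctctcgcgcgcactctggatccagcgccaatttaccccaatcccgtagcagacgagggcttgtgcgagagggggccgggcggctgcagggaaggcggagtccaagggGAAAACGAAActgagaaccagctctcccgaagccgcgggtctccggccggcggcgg
EIF5A2: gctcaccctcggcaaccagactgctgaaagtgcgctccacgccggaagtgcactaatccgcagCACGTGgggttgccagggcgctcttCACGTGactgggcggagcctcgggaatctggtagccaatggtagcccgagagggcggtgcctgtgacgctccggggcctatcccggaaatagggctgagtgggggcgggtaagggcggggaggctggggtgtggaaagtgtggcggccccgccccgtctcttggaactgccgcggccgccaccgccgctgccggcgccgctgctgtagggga
In EIF2AK2 the interferon element begins 6 bases before the gene start and the E-box 181 bases before it. In EIF5A2 E-boxes begin 187 and 162 bases before the start. Both motifs were searched on both strands, and they do not overlap in these windows.

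As a check of the arrays, KDM4C was at 9.03 ± 0.05 without and 7.76 ± 0.05 with doxycycline (log2 expression value, SD, n = 3 each), in the direction of a tet-off construct. Correlations between arrays were 0.991 to 0.993 within groups and 0.990 to 0.991 between them. All 6 measured noradrenergic neuroblastoma markers, among them PHOX2A, HAND2 and GATA3, lay above the median probe set, at group means of 9.13 to 11.3 without and 8.98 to 11.0 with doxycycline. Their summed log2 levels per array were 58.7 to 59.4 without and 57.9 to 58.5 with doxycycline, without overlap. The 4 measured markers of blood and endothelium lay below the median probe set. The 2 measured mesenchymal markers and 2 of the 3 measured epithelial markers lay above it. Of all measured cell type markers 0 passed the test. Summed log2 levels of the 2 measured mesenchymal markers, LUM and THY1, the second also a neuronal protein, were 17.5 to 17.7 without and 17.9 to 18.1 with doxycycline, also without overlap but lower without doxycycline, and those of the 3 epithelial markers 11.6 to 12.7 and 12.10 to 12.14. The part of such cells in the results below was not tested. Levels in bulk RNA do not tell fewer cells expressing a gene from less RNA per cell.

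None of the 24 genes passed the threshold of 0.05 on the limma p with Benjamini-Hochberg adjustment over the whole table: 0 passed upward and 0 downward. The same rule called 0.248% of all 53617 probe sets as higher without doxycycline and 0.0933% as lower, and 0.564% of the 14884 named genes in either direction. At an unadjusted p below 0.05, 2 members were lower, EIF2AK2 and EIF5A2, and 0 were higher, against 6.87% lower and 7.57% higher among named genes. The differences, no doxycycline minus doxycycline on the log2 scale, ran from -0.33 to 0.28 with a median of -0.02, beside a median of -0.002 over named genes. The 95% confidence interval lay within 0.5 of 0 on the log2 scale (1.41-fold) for 23 of the 24, and for 87.8% of named genes. The exception was EIF1B, whose interval reached 0.63.

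**Figure D1:**
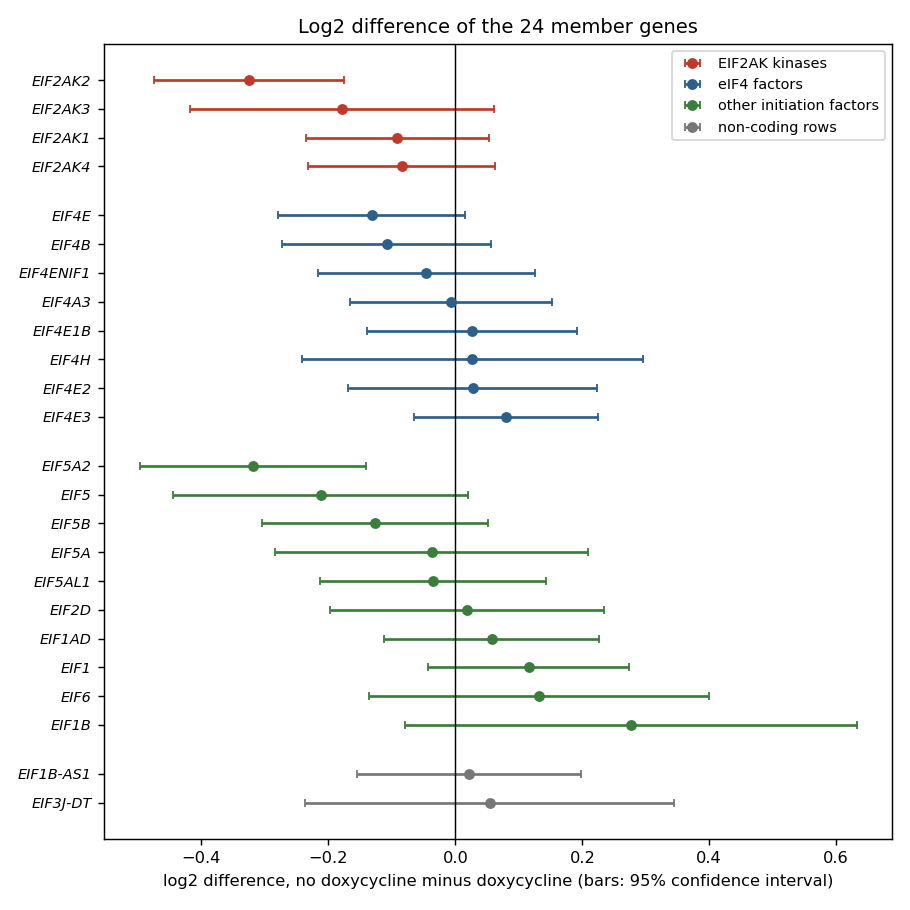
Log2 difference (no doxycycline minus doxycycline) of each of the 24 genes on the horizontal axis, with its 95% confidence interval from limma (3 arrays per group), grouped and coloured by role. All 4 kinases lie left of 0, between -0.33 and -0.08, and only the intervals of EIF2AK2 and EIF5A2 leave out 0.

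All 4 kinases of eIF2alpha had lower mean values without doxycycline, and none passed the adjusted test. The median of their log2 differences was -0.135. The 2 groups of arrays did not overlap for 3 of the 4, each time lower without doxycycline, where 12.5% of named genes had such groups.

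EIF2AK2 encodes PKR, the kinase activated by double-stranded RNA and itself induced by interferon. Its log2 values were 9.44, 9.42 and 9.43 without doxycycline, against 9.80, 9.69 and 9.77 with it. The 3 arrays without doxycycline lay close together and below all 3 arrays with it. The log2 difference was -0.33 (SE 0.06, 95% confidence interval -0.47 to -0.18), 1.25-fold lower, with a limma adjusted p of 0.119 and an unadjusted p of 0.00147. It passed under 2 of 12 alternative settings, trend with robust moderation (adjusted p = 0.0414) and a test of 1 probe set per named gene (adjusted p = 0.0342). The adjusted p reached 0.293 among the others. Those settings called 0.242% of probe sets and 1.01% of genes as lower.

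EIF2AK3 encodes PERK, the kinase in the membrane of the endoplasmic reticulum that responds to unfolded proteins. Its values were 6.80, 6.63 and 6.87 without doxycycline and 7.06, 6.79 and 6.99 with it. The groups overlapped, because the second array with doxycycline lay below the highest 2 without it. On the log2 scale the means differed by -0.18 (SE 0.10, 95% confidence interval -0.42 to 0.06, limma adjusted p = 0.531).

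EIF2AK1 encodes HRI, which responds to haem shortage and relays mitochondrial stress. Its values were 9.53, 9.55 and 9.61 without doxycycline and 9.67, 9.64 and 9.65 with it. The groups did not overlap, but the log2 difference was only -0.09 (95% confidence interval -0.24 to 0.05, limma adjusted p = 0.596).

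EIF2AK4 encodes GCN2, the kinase that binds uncharged tRNA when amino acids are short. Its values were 8.66, 8.69 and 8.72 without doxycycline and 8.73, 8.78 and 8.82 with it, again without overlap. The log2 difference was -0.08 (95% confidence interval -0.23 to 0.06, limma adjusted p = 0.636).

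**Figure D2:**
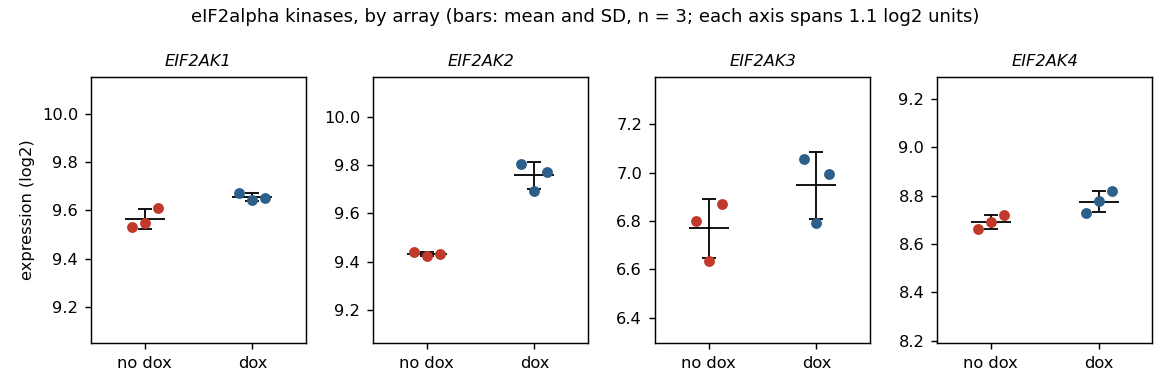
Log2 expression value of the 4 kinase genes on each array, without doxycycline (red, left) and with doxycycline (blue, right), with the mean and SD of 3 arrays. EIF2AK2 shows the widest gap between the groups, 9.43 ± 0.01 against 9.76 ± 0.06, and EIF2AK3 is the one kinase whose arrays overlap.

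Genes downstream of the kinases had positive differences. Of 13 genes listed as ATF4 and genes induced downstream of the kinases, 9 were measured, all 9 had positive log2 differences and 6 rose, with a median of 1.26. Of the 14884 named genes, with 1 probe set each, 64 rose, and of all 53617 probe sets, 0.248% rose. The 6 were SESN2 (1.63), DDIT3, which encodes CHOP (1.36), TRIB3 (1.31), DDIT4 (1.30), ATF5 (1.26) and ASNS (1.00). ATF4 mRNA was at 10.11, 10.14 and 10.25 without doxycycline and 9.77, 9.85 and 9.93 with it, a log2 difference of 0.31 (SE 0.07, limma adjusted p = 0.179). ATF3 and VLDLR were at 0.41 and 0.17 and did not pass, and ATF3 lay below the median probe set. With 1 probe set per named gene tested, ATF3 had a limma adjusted p of 0.0342, and that setting called 402 of 14884 genes. The number of listed genes that passed was 0 without any 1 of doxycycline replicates 1 and 2 or no-doxycycline replicates 2 and 3. It was 1 without no-doxycycline replicate 1 and 3 without doxycycline replicate 3. The list was chosen with its direction in these data known and is not independent evidence of it. The arrays measured mRNA, not phosphorylation of eIF2alpha or activity of a kinase.

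Of the genes that oppose or tune the kinases, 4 of 10 were measured. TRIB3, a pseudokinase that inhibits ATF4 and CHOP and is counted above too, was the 1 that rose, beside 64 of the 14884 named genes. GCN1, the ribosome-bound activator of GCN2, was at 9.05 ± 0.02 without and 9.08 ± 0.04 with doxycycline, a log2 difference of -0.02 (95% confidence interval -0.17 to 0.12). IMPACT, which competes with GCN2 for GCN1, was at -0.03, and NCK1, an adaptor that takes part in eIF2alpha dephosphorylation, at 0.04. The phosphatase subunits PPP1R15A and PPP1R15B are not analysed here.

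**Figure D3:**
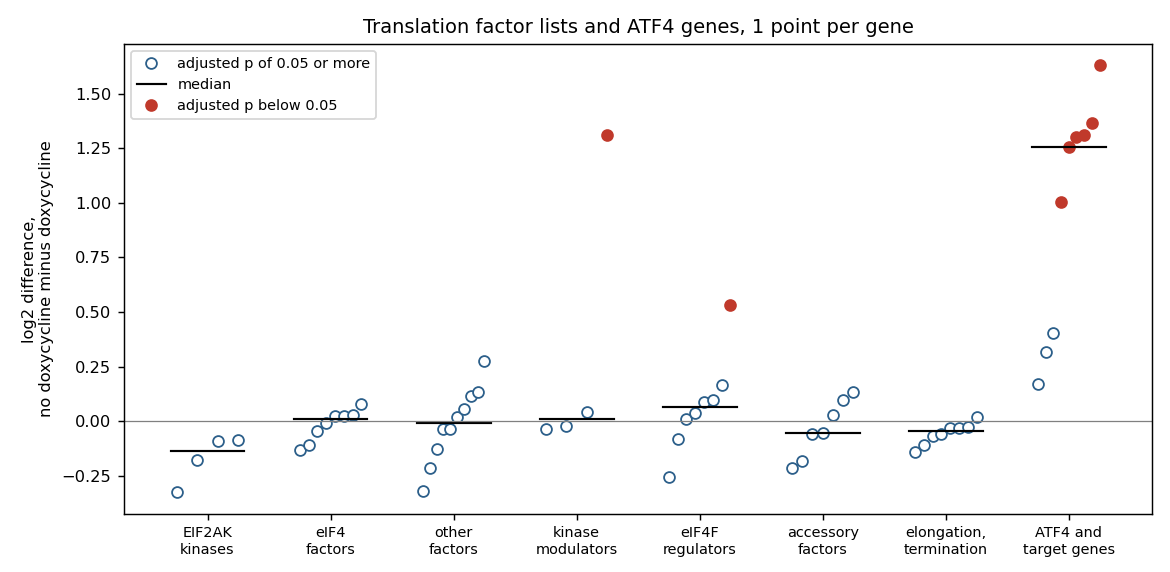
Log2 difference (no doxycycline minus doxycycline) of every measured gene in each group of genes, 1 point per gene, with the median as a line and filled points for a limma adjusted p below 0.05. The kinases and factors lie between -0.33 and 0.28, while 6 of 9 genes of the ATF4 list lie at 1.00 or above.

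The 8 measured eIF4 factors, grouped by name, had a median log2 difference of 0.01, with 4 positive and 4 negative and 0 past the threshold. Not all of them act at the mRNA cap, as EIF4A3 and EIF4ENIF1, described below, show. EIF4E, the cap-binding protein, was at 7.35, 7.26 and 7.34 without doxycycline and 7.44, 7.45 and 7.46 with it. All 3 arrays without doxycycline lay below all arrays with it. Their log2 difference was -0.13 (SE 0.06, 95% confidence interval -0.28 to 0.02, limma adjusted p = 0.454).

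The related cap-binding proteins lay closer to 0. EIF4E2, also called 4EHP, represses translation of the mRNAs it is recruited to, and it was at 6.92 ± 0.07 without and 6.89 ± 0.11 with doxycycline. EIF4E3 was at 7.50, 7.44 and 7.45 without and 7.40, 7.34 and 7.41 with doxycycline. These groups did not overlap, with a log2 difference of 0.08 (95% confidence interval -0.07 to 0.22, limma adjusted p = 0.654). EIF4E1B, a germ-cell paralog, was at 3.95 and 3.93, close to the median probe set of 3.94. EIF4ENIF1, which carries EIF4E into the nucleus and to processing bodies, was at 7.52 ± 0.08 and 7.57 ± 0.05.

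Cofactors of the eIF4A helicase were EIF4B and EIF4H. EIF4B was represented by 2 probe sets that differed in size but not in sign. The brighter one was at 10.94, 10.89 and 10.78 without doxycycline and 10.95, 11.00 and 10.98 with it, a log2 difference of -0.11 (95% confidence interval -0.27 to 0.06, limma adjusted p = 0.584). The dimmer one was at 8.11, 7.92 and 7.73 without and 8.69, 8.19 and 8.22 with doxycycline. Its groups did not overlap either, and its difference was -0.45 (SE 0.16, unadjusted p = 0.0289, limma adjusted p = 0.333). Leaving out doxycycline replicate 1 put the difference of this dimmer probe set at -0.29. EIF4H was at 10.64 ± 0.16 and 10.62 ± 0.14. EIF4A3, the helicase of the exon junction complex, was at 7.97 ± 0.06 and 7.98 ± 0.04, within 0.17 of equality on either side at 95% confidence.

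The inhibitors of EIF4E, left out by the rule, had higher means without doxycycline. EIF4EBP1 was at 10.10, 10.16 and 10.10 without doxycycline and 9.62, 9.56 and 9.58 with it, and rose by 0.53 (SE 0.06, limma adjusted p = 0.0337). Leaving out any 1 of the 6 arrays kept the difference between 0.51 and 0.55 but put the adjusted p at 0.119 to 0.144. EIF4EBP2 was at 11.23 ± 0.04 and 11.07 ± 0.10, a difference of 0.16 (limma adjusted p = 0.441). Of the 13 listed regulators of the cap-binding complex 8 were measured, EIF4EBP1 was the 1 that passed, and the median was 0.06. Among named genes 0.564% passed in either direction. CYFIP1, another EIF4E-binding protein, was at -0.26 (limma adjusted p = 0.200), and PAIP2, an inhibitor of poly(A)-binding protein, at -0.08. Neither passed.

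The 10 other factors were spread around 0, with 5 positive and 5 negative differences, a median of -0.01 and 0 past the threshold. EIF5A2 had the second smallest p of all 24 genes. It encodes a hypusine-containing factor, a paralog of EIF5A, which helps ribosomes through difficult stretches of mRNA. It was at 8.34, 8.18 and 8.27 without doxycycline and 8.65, 8.59 and 8.51 with it, so that every array without doxycycline lay below every array with it. The log2 difference was -0.32 (SE 0.07, 95% confidence interval -0.50 to -0.14), 1.25-fold lower, with a limma adjusted p of 0.175. It stayed outside the threshold under all 12 alternatives, at an adjusted p of 0.0610 to 0.364. EIF5A itself was at 4.81 ± 0.12 and 4.85 ± 0.15, and the near-identical copy EIF5AL1 at 3.05 ± 0.09 and 3.09 ± 0.05. Probes of these 2 genes may share transcripts, and their values are uncertain.

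**Figure D4:**
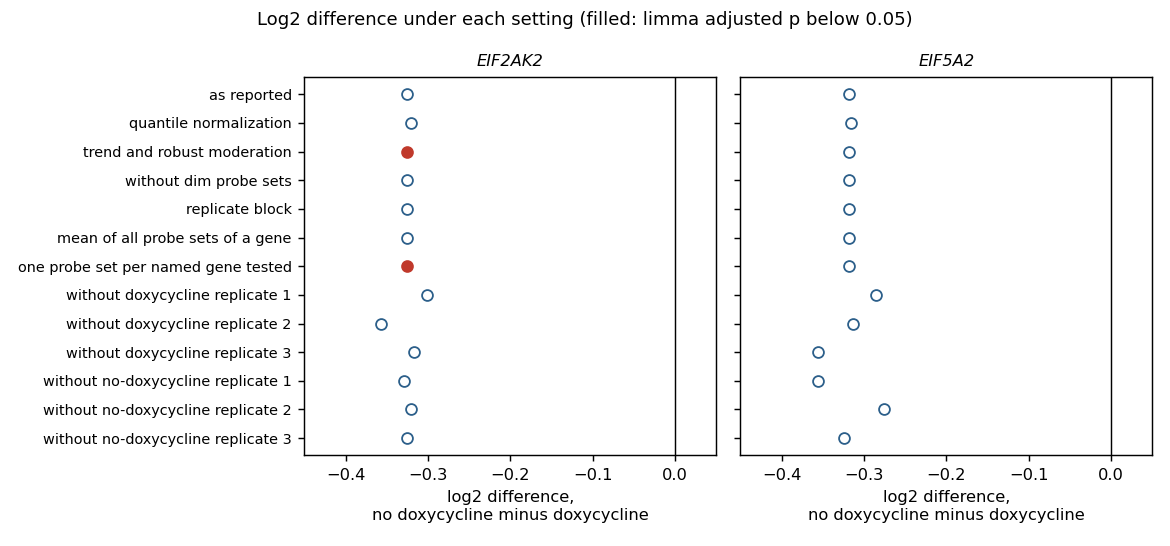
Log2 difference (no doxycycline minus doxycycline) of EIF2AK2 and EIF5A2 as reported and under each of 12 alternatives, with filled points for a limma adjusted p below 0.05. Values run from -0.36 to -0.30 for EIF2AK2 and from -0.36 to -0.28 for EIF5A2, and 2 settings for EIF2AK2 are filled.

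Among the factors of start codon recognition, EIF5, the GTPase activator of eIF2, was at 8.49, 8.43 and 8.75 without doxycycline and 8.75, 8.73 and 8.82 with it. The third array without doxycycline lay among those with it. The log2 difference was -0.21 (SE 0.10, 95% confidence interval -0.44 to 0.02, limma adjusted p = 0.443), and -0.31 without that array. EIF1, which guards the accuracy of start codon selection, was at 11.13, 11.11 and 11.21 without and 10.98, 11.05 and 11.08 with doxycycline. Its groups did not overlap, with a difference of 0.12 (SE 0.07, limma adjusted p = 0.541).

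EIF1B, a close paralog of EIF1, had the largest positive difference of the members with all 6 arrays. It was at 5.61, 5.94 and 5.54 without doxycycline and 5.62, 5.47 and 5.17 with it, with overlapping groups. The log2 difference was 0.28 (SE 0.15, 95% confidence interval -0.08 to 0.63, limma adjusted p = 0.515). It was 0.15 without doxycycline replicate 3, where EIF6 was at 0.24, and 0.16 without no-doxycycline replicate 2. EIF1AD, a nuclear protein with a domain like that of eIF1A, was at 7.53 ± 0.05 and 7.48 ± 0.08.

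Of the factors that act on subunit joining, EIF5B was at 8.15, 8.28 and 8.11 without doxycycline and 8.29, 8.38 and 8.26 with it. The groups overlapped, and the difference was -0.13 (SE 0.07, limma adjusted p = 0.550). EIF6, which keeps free large subunits apart from small ones, was at 9.29, 9.30 and 9.43 without and 9.19, 9.02 and 9.42 with doxycycline. Its groups overlapped too, at 0.13 (SE 0.11, limma adjusted p = 0.692), with 0.036 and 0.24 without doxycycline replicates 2 and 3 and 0.087 without no-doxycycline replicate 3. EIF2D, which can deliver tRNA to the ribosome without eIF2 and helps recycle it, was at 8.35 ± 0.04 and 8.34 ± 0.15, which differ by 0.02 (95% confidence interval -0.20 to 0.23).

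**Figure D5:**
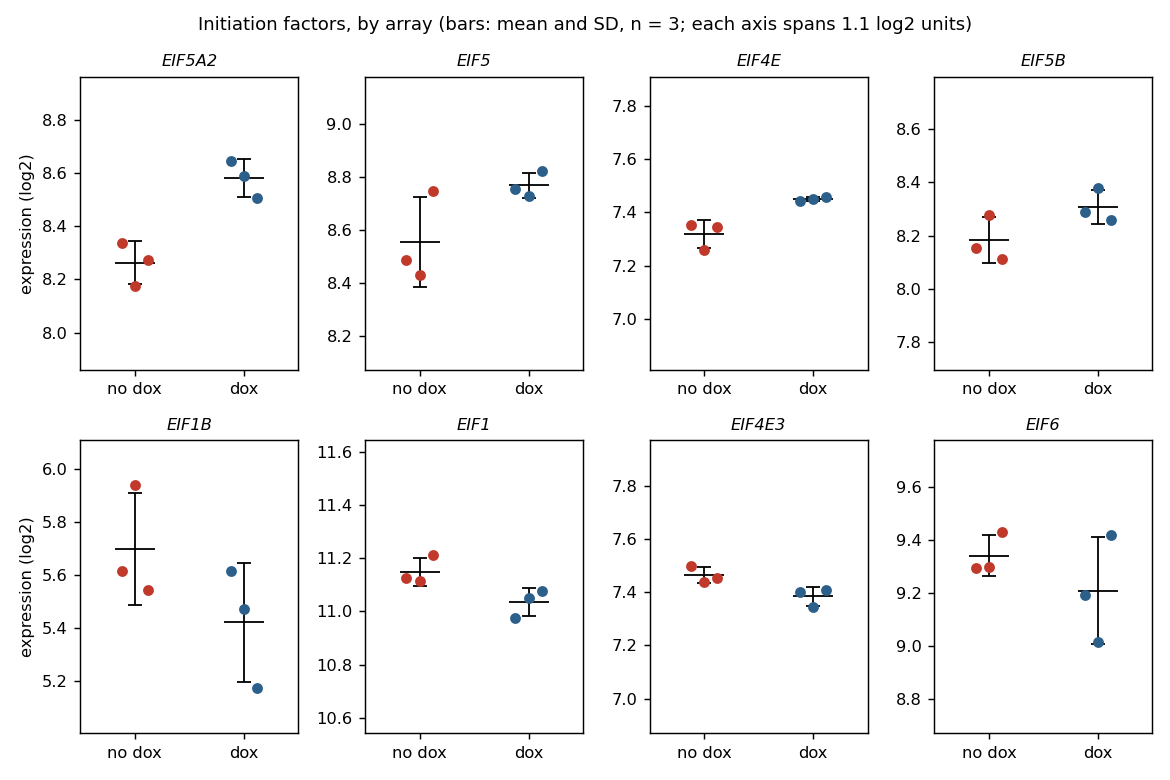
Log2 expression value on each array, without doxycycline (red, left) and with it (blue, right), with the mean and SD of 3 arrays, for the 4 factors with the smallest p in each direction outside the kinases. In the upper row EIF5A2 and EIF4E have separate groups below those with doxycycline, and in the lower row EIF1 and EIF4E3 have separate groups above.

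The 2 non-coding members were EIF3J-DT, a divergent transcript of the EIF3J locus, at 7.62 ± 0.04 and 7.57 ± 0.24, and EIF1B-AS1, at 3.22 ± 0.04 and 3.20 ± 0.10. Neither measures the factor in its name. Over all members, groups without overlap were lower for 6 genes and higher for 2 without doxycycline, and 16 overlapped. Among named genes 12.5% had such groups lower and 12.1% higher.

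Neighbouring steps of translation had 0 genes past the threshold. Of 10 accessory initiation and recycling factors 7 were measured, with a median of -0.05. NAT10, an acetyltransferase of ribosomal RNA, was at 8.39 ± 0.04 and 8.57 ± 0.01 (log2 difference -0.18, limma adjusted p = 0.292). MCTS1, the partner of DENR in re-initiation, was at -0.21, with -0.086 without no-doxycycline replicate 3 and -0.35 without no-doxycycline replicate 2. The chaperone HSPB1 was at 0.13 and BZW1, an eIF5 mimic, at 0.10. Of 12 elongation and termination factors 8 were measured, with a median of -0.05, 7 negative and 1 positive. The release factor GSPT1 was at 9.65 ± 0.01 and 9.79 ± 0.07 (difference -0.14, limma adjusted p = 0.455), the translocase EEF2 at -0.11 and EEF1D, an exchange factor subunit, at 0.02. At an unadjusted p below 0.05, 1 accessory factor, NAT10, was lower and 0 were higher, and 0 elongation and termination factors passed in either direction.

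Promoter letters of 23 members were in the RefSeq table, in 34 windows of 300 bases. EIF2AK1 had no entry. CACGTG, which reads the same on both strands, was found in 8 of the 34 windows, those of EIF1B, EIF1B-AS1, EIF2AK2, EIF4A3, EIF4B, EIF4E, EIF4H and EIF5A2, and in 7.26% of all 35116 windows. These 8 genes include the 2 members with the smallest p and also EIF4A3 and EIF4H, at -0.01 and 0.03. The core of the ATF4 response element, TGATGNAA on either strand, was found in 1 of the 34, a window of EIF4E3, and in 3.62% of all windows. Among the 13 listed ATF4 genes it was found in 4 of 23 windows, those of ASNS, ATF3, CEBPG and CHAC1. Of these, ASNS was among the genes that rose and ATF3 was not, and CEBPG and CHAC1 were not measured. The other genes that rose had no match. The core of the interferon element on either strand was found in 3 of the 34, windows of EIF2AK2 and EIF6, and in 3.57% of all windows. These matches describe letters, and binding of a factor was not measured.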

How the data were processed

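Each row of the deposited table is a probe set, with a log2 expression value for every array that the authors had already normalized by a method not stated in the labels. Partek is the tool named, per the submitters' processing notes. How background was corrected and probes summarized, and on which genome build, is not given in the sources used here. Values ran from 2.12 to 14.3, which fits log base 2, and array medians from 3.94 to 3.96. Scanner intensities were not used, so dim probe sets have no background level, and precision is limited by the number of arrays. The 3 samples of a group are described as independent, but separate cultures are not named, so p-values reflect the spread between these samples.

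GEO's platform annotation gave 1 symbol to 16098 probe sets, several to 0 and none to 37519. All 24 member Entrez identifiers matched RefSeq (GRCh38.p14). The fit, limma 3.58.1 in R 4.3.3 with lmFit and eBayes, covered all 53617 probe sets with no covariate and no filter, with Benjamini-Hochberg adjustment and a threshold of 0.05. An exact permutation test of 3 against 3 arrays cannot go below p = 0.1.

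Members and lists were chosen with earlier results of these data known. Array values were given for all kinases, for any member past the threshold and for the 4 other members with the smallest p in each direction. In the 5 other lists the genes past the threshold and, for each direction, those 2 whose p was smallest were named, and further genes where a small count is spelled out. The fit was run on simulated data with known changes and independent normal errors, and recovery of those changes is not reported here. The alternatives tried were quantile normalization, trend with robust moderation, no dim probe sets, a replicate block, the mean of a gene's probe sets, 1 probe set per named gene tested, and each array left out.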

Additional observations from a re-analysis of the deposited data

How the results depend on the processing

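The count of members past the limma threshold was 0 in 10 of 12 alternatives and 1 (EIF2AK2, lower) with trend and robust moderation and with 1 probe set per named gene tested. Without dim probe sets 21 of the 24 members remained. With 1 array left out, the median of the kinases lay between -0.18 and -0.10, that of the eIF4 factors between -0.033 and 0.028, and the number of ATF4 list genes past the threshold between 0 and 3. KDM4C then lay between 1.24 and 1.29, with an adjusted p of 0.0311 to 0.0696. The labels do not say whether the replicate numbers pair the arrays. Deviations of same-numbered arrays from their group means correlated at -0.01, -0.01 and 0.04. Not every array correlated best with its own number. These correlations run over all probe sets, dim ones included, and cannot decide whether the arrays were paired. With the replicate block limma called 0 probe sets (6251 at an unadjusted p below 0.05), 0 members and 0 ATF4 list genes among them, and KDM4C, at 1.27, had an adjusted p of 0.118. The member genes that changed sign with 1 array left out, 9 in number, had the following ranges: EIF1B-AS1 -0.030 to 0.067, EIF2D -0.037 to 0.10, EIF3J-DT -0.081 to 0.14, EIF4A3 -0.043 to 0.019, EIF4E1B -0.016 to 0.052, EIF4E2 -0.032 to 0.076, EIF4H -0.047 to 0.12, EIF5A -0.12 to 0.027 and EIF5AL1 -0.067 to 0.018. EEF1D and NCK1 did so too, at -0.095 to 0.11 and -0.0035 to 0.080. The other 15 members kept their sign under all 12 alternatives. The mean of both EIF4B probe sets gave -0.28 (adjusted p = 0.339), against -0.11 for the brighter one.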

Other observations

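The genes around EIF2AK2 and EIF5A2 were looked up after the values of those genes were seen, and their differences are descriptions with no test. Of 28 interferon-stimulated genes 19 were measured, with a median log2 difference (no doxycycline minus doxycycline) of 0.01, 9 negative and 10 positive, from -0.23 to 0.25. SAMHD1, a nucleotide hydrolase, was at 8.21 ± 0.07 without and 8.36 ± 0.01 with doxycycline. IRF9, a subunit of the interferon-activated transcription factor, was at 6.14 ± 0.08 and 5.89 ± 0.10. IFIT1 was at 3.41 ± 0.10 and 3.59 ± 0.05 (SD, n = 3 each), and it was 1 of 14 genes of the list below the median probe set. Of 8 proteins that bind double-stranded RNA 2 were measured, TARBP2 at 7.09 ± 0.07 and 7.03 ± 0.15 and DHX9 at 10.12 ± 0.02 and 10.11 ± 0.10.

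The lysine of eIF5A proteins is modified to hypusine by DHPS and DOHH, with the polyamine spermidine as donor. DHPS was at 9.66 ± 0.05 without and 9.74 ± 0.07 with doxycycline. All 13 listed genes of hypusine and polyamine metabolism were measured, with a median of 0.05, 10 positive and 3 negative. ODC1, the first enzyme of polyamine synthesis, was at 10.00 ± 0.005 and 9.83 ± 0.10, a difference of 0.17. AMD1, which makes the aminopropyl donor, was at 9.48 ± 0.09 and 9.72 ± 0.02, a difference of -0.24.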
